A study of Mus musculus with 4 samples.

Results

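Aerocytes are the thin, wide capillary endothelial cells of the alveolus that lie against the epithelium of the gas-exchange surface. The cells described here were chosen by a rule on single-cell counts from mouse lung. A cell had at least 0.4% of its unique molecular identifiers (UMIs, 1 per captured RNA molecule) from 10 endothelial genes (Cdh5, Cldn5, Tie1, Egfl7, Ramp2, Calcrl, Emcn, Robo4, Sox18 and Cyyr1), less than 5% from the surfactant genes Sftpc, Sftpb and Sftpa1, less than 0.1% from the leukocyte genes Ptprc, Laptm5, Tyrobp and Coro1a, and at least 8 UMIs of the aerocyte genes Car4, Ednrb, Fibin and Apln together. The rule found 180 aerocytes among 25982 cells, and the 752 cells that met the first 3 conditions included 572 other endothelial cells. The 4 aerocyte genes and the 10 endothelial genes chose the cells, so their levels are given as a description.

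The study examined pulmonary hypertension in mice lacking FUNDC1, an outer mitochondrial membrane receptor for mitophagy. Lungs were taken at 11 weeks of age, and cells from 5 mice were pooled into 1 library per group, captured on GEXSCOPE microwell chips. The groups were wild-type mice given vehicle under normoxia (NW), FUNDC1 knockout mice given vehicle under normoxia (NK), wild-type mice in the HySu model of hypoxia with 3 weekly doses of SU5416 (HSW), and FUNDC1 knockout mice in the same model (HSK). The series title speaks of an endothelial deficiency, while the labels name no promoter or Cre line for the knockout. Values are listed in the order NW, NK, HSW and HSK. Each group is 1 library, so no difference between groups has a replicate check, and every interval is a 95% interval for counting error only.

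As background, alveolar capillaries are built from aerocytes and general capillary cells, and the general cells act as progenitors of both. Aerocytes depend on VEGFA from the neighbouring alveolar type 1 cells, which they receive through Kdr (VEGF receptor 2), and they carry the endothelin receptor Ednrb and the membrane carbonic anhydrase Car4. SU5416 inhibits the VEGF receptor kinases and is also known as a ligand of the aryl hydrocarbon receptor (AHR), a transcription factor that pairs with Arnt and switches on cytochrome P450 genes.

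There were 24, 51, 74 and 31 aerocytes, with 145238, 224967, 484685 and 245086 UMIs in total and medians of 5081, 3961, 5765 and 7123 UMIs per cell. They made up 32.4% (22 to 44.3), 28.3% (21.9 to 35.5), 21.6% (17.3 to 26.3) and 20% (14 to 27.2) of the endothelial cells (exact binomial intervals), and these intervals overlap. Among all cells of a library they made up 0.314%, 0.557%, 1.47% and 0.751%; how cells were lost in dissociation was not measured. Of 25728 different barcodes, 252 occurred in more than 1 library; 4 aerocytes carried such a barcode and no barcode was shared between aerocytes. Fundc1 gave 4, 0, 21 and 0 UMIs in aerocytes. Both libraries labelled knockout were at 0, and they were low in other cells too: leukocyte-marked cells held 46.1, 1.02, 45.1 and 0.0948 CPM (counts of a gene per 1000000 UMIs of the same cells) and surfactant-rich type 2 cells 32.3, 0.824, 30.3 and 0.0929.

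Some aerocytes carried RNA of other cell types, and this differed between libraries. The summed level of 5 red cell genes was 26742, 80.0, 6010 and 8797 CPM, and in NW, NK and HSW 1 cell held nearly all of it. The 5 neutrophil genes summed to 854, 4192, 654 and 898 CPM, with 2 cells of NK above 0.5% of their UMIs. The 9 fibroblast genes summed to 269, 516, 699 and 98, the 9 pericyte and smooth muscle genes to 227, 107, 332 and 16.3, and the 9 alveolar type 1 genes to 737, 1182, 345 and 241. The 10 alveolar type 2 genes, of which the rule capped 3, summed to 4393, 3898, 2486 and 4819, with 2, 13, 4 and 7 cells above 0.5%. Without the 3 capped genes, 2 of 4 measured were at least 2-fold lower in HSW against NW (median log2 ratio -1.16), against 5.25% of all genes. In HSK against HSW 2 of 6 measured, again without them, were at least 2-fold higher (1.19), against 2.29% of all genes. The 8 ciliated and secretory genes, chiefly Scgb1a1 of club cells, summed to 1053, 1316, 3206 and 15484, with 6 cells of HSW and 8 of HSK above 0.5%. Of these lists, 4 of 5 red cell genes were at 0 in NK and 6 of 9 pericyte genes at 0 in HSK. Genes that rest on such cells are named as such below.

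The cells carried the aerocyte genes that the rule had not used. Every one of the 180 cells had a Kdr UMI. Kdr measured 2506, 2876, 2241 and 1808 CPM against 646 to 844 in other endothelial cells, and Emp2, a tetraspan membrane protein, 2183, 2209, 1702 and 1216 against 225 to 289.7. All 14 aerocyte genes outside the rule were higher than in other endothelial cells in each of the 4 libraries, 7 of them at least 2-fold in each. General capillary genes were lower in part: of 10, 6 were lower in each library and none was at least 2-fold lower in each. Lymphatic and venous genes stood lowest, with 7 of 7 and 9 of 10 lower in each library. By this rule 0.527% of the 5693 genes compared were at least 2-fold higher in aerocytes in each library and 0.773% at least 2-fold lower; the same cells were sorted by aerocyte genes, so nothing is read from these shares.

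**Figure D1:**
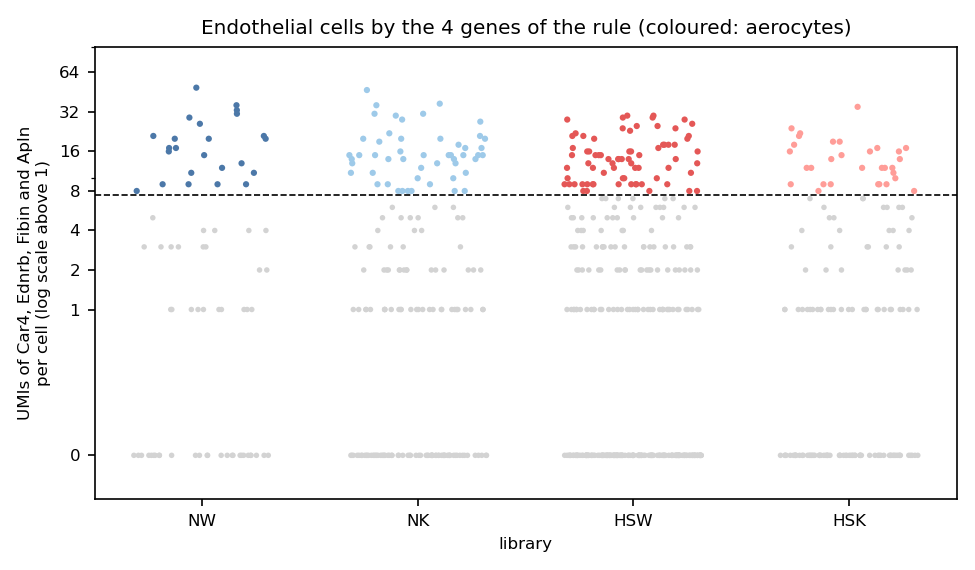
Each point is 1 endothelial cell, placed by its summed UMIs of Car4, Ednrb, Fibin and Apln on a vertical axis that is logarithmic above 1, in the 4 libraries; coloured cells are aerocytes, grey cells are the other endothelial cells, and the dashed line lies just under 8 UMIs. Just under the line, at 6 to 7 UMIs, lie 0, 3, 15 and 8 cells, and just above it, at 8 to 9 UMIs, 5, 9, 18 and 8.

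Cells lay close to both sides of the threshold in NK, HSW and HSK, while NW had none at 6 to 7 UMIs. Over the 4 libraries the 40 cells with 8 to 9 UMIs of the 4 genes held 1894 Kdr and 1316 Emp2 CPM. The 26 cells just outside, with 6 to 7 UMIs, held 1447 and 961. The 315 endothelial cells with none held 625 and 121, and the 140 aerocytes with 10 or more held 2424 and 1884. The 8-UMI minimum is a smaller share of a deeper cell: the median share of the 4 genes was 0.304%, 0.364%, 0.211% and 0.176% of a cell's UMIs.

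Genes were ranked by their lowest ratio to other endothelial cells over the 4 libraries, among genes outside the rule with at least 100 UMIs. The 10 highest included the transcription factor Tbx2, the integrin subunit Itgb5, the sulfotransferase Chst1, the secreted binding protein Igfbp7, the phosphatase Ptp4a3 and Kitl, the ligand of the receptor Kit. Emp2 was 5.41 to 8.62 times the level of other endothelial cells, Tbx2 5.15 to 8.42 times, Igfbp7 3.77 to 8.74 times and Kitl 3.24 to 6.33 times over the 4 libraries. Ccdc184, Egflam and the G protein subunit Gnao1 were the other members of that group. The 10 lowest, ranked alike by their highest ratio, were Reln, Mmrn1, Ccl21a, Fbln5, Gpm6a, Fxyd6, Pgm5, Vcam1, Maf and Ch25h. Reln, Mmrn1, Ccl21a and Maf are genes of lymphatic endothelium, and Vcam1 is an adhesion molecule of veins. Pgm5 had no UMI in any aerocyte, and Ccl21a had 4 in the 180 cells against 334 in the 572 others.

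**Figure D2:**
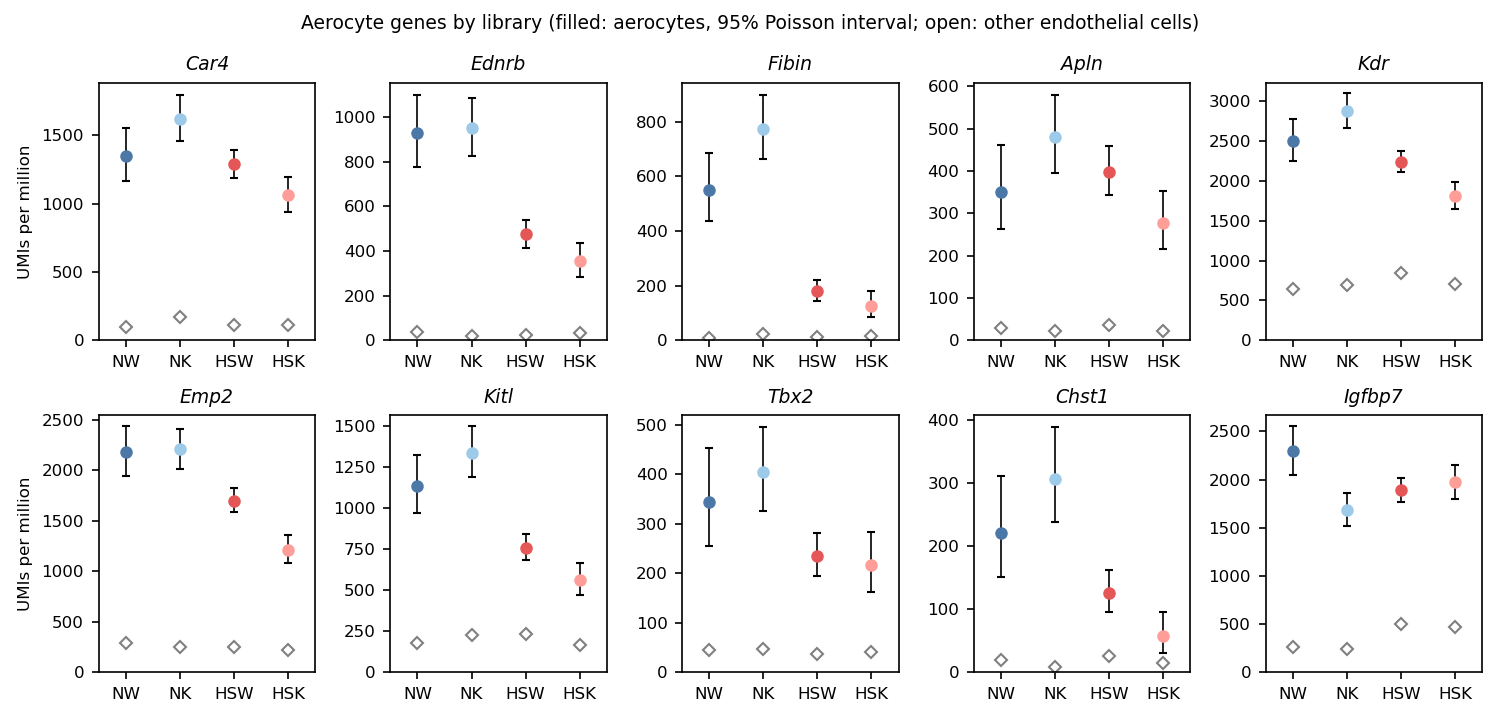
Levels in CPM (vertical axis from 0) of the 4 genes of the rule (Car4, Ednrb, Fibin, Apln) and 6 genes outside it in aerocytes of each library, with 95% Poisson intervals; open diamonds are the other endothelial cells of the same library. Every filled point lies above its open diamond. Of the genes outside the rule, all but Igfbp7 are lower in both HySu libraries than in both normoxia libraries.

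The 4 genes of the rule had these levels within aerocytes. Car4 measured 1349.5, 1622, 1287 and 1061 CPM, and Apln, the ligand of the apelin receptor, 351, 480.1, 398 and 277. Ednrb measured 929.5, 951, 475 and 355 and Fibin, a secreted protein, 551, 773, 179 and 126. These 4 were counted to choose the cells, and the 8-UMI minimum admits lower shares in deeper cells, so no difference between libraries is read from them. Their levels in leukocyte-marked cells were 313, 437, 437 and 958 for Car4, a gene that alveolar macrophages also express, and 4.48, 4.03, 3.09 and 0.948 for Ednrb, in CPM.

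The comparison of HSW with NW asks what the HySu model does to wild-type aerocytes. AHR target genes made the widest separation between the libraries. Cyp1b1, a cytochrome P450 enzyme, had 0, 1, 586 and 339 UMIs, or 0, 4.45, 1209 and 1383 CPM. Both HySu libraries were high and both normoxia libraries at or near 0, and HSW was at least 58.5-fold above NW (3 counts set as the floor for NW). Nqo1, a quinone reductase, had 0, 1, 108 and 67 UMIs, at least 10.8-fold higher in HSW than in NW. Cyp1a1, the classical AHR-induced P450, was already present in normoxia at 985, 1645, 8238 and 7642 CPM, and HSW stood 8.37 (7.08 to 9.96) times above NW. Ahrr, the repressor that AHR itself induces, had 0, 1, 23 and 7 UMIs. The receptor and its partner were lower: Ahr measured 392, 240.0, 142 and 102 CPM, a ratio of 0.363 (0.252 to 0.525), and Arnt 82.6, 84.5, 20.6 and 28.6, a ratio of 0.25 (0.0966 to 0.631).

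Of 13 listed AHR genes 9 were measured, meaning at least 20 UMIs in the pair of libraries. Cyp1b1, Nqo1, Ahrr and Cyp1a1 were higher, and Ahr and Arnt lower, at least 2-fold with an interval that left out 1. By the same rule 4.45% of all 5300 genes measured were higher and 5.25% lower, and the list's median log2 ratio was 0.54 against -0.06 over all genes. Other endothelial cells showed ratios of 13.4 for Cyp1a1 and 226 (77.3 to 1097) for Cyp1b1. Thinned to 3000 UMIs per cell, 68 of 74 HSW aerocytes (91.9%) and 27 of 31 HSK aerocytes (87.1%) had a Cyp1b1 UMI, against 0 of 24 and 0 of 51 in normoxia. These counts allow shares of up to 14.2% and 6.98% (exact limits) for cells with a UMI at that depth, not for cells that express the gene. Before thinning 0 of 24 and 1 of 51 normoxia aerocytes had a UMI, and the HySu shares were 94.6% and 93.5%. Leukocyte-marked cells gave 3.33% in HSW and 5.33% in HSK after thinning, with median depths of 7732 and 9172 UMIs before it. Cyp1b1 was higher in other lung cells too: without thinning, 1.2%, 1.04%, 36% and 48% of surfactant-rich type 2 cells and 0.458%, 0.404%, 12% and 14.4% of leukocyte-marked cells had a UMI, so these cells are no background free of the gene.

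The promoters of the 4 AHR targets that were higher are printed to show where the receptor's core sequence lies in them. Each is the 250 bases before the RefSeq start site on GRCm38.p6, 5′ to 3′ on the gene's own strand, with every GCGTG, the core of the AHR and Arnt binding site, or its reverse complement CACGC, in capitals. The promoter of Cyp1b1 lies at chr17:79715062-79715311 on the minus strand, that of Cyp1a1 at chr9:57697363-57697612 on the plus strand, that of Ahrr at chr13:74292332-74292581 on the minus strand and that of Nqo1 at chr8:107403206-107403455 on the minus strand.
Cyp1b1: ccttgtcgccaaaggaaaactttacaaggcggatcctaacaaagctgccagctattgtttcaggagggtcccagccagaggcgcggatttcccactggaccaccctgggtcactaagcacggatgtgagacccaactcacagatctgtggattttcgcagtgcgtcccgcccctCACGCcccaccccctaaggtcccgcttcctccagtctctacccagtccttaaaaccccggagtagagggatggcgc
Cyp1a1: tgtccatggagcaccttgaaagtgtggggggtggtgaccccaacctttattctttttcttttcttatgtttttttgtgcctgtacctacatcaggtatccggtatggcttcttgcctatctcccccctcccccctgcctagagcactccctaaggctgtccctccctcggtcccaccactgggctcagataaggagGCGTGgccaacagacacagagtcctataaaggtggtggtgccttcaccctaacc
Ahrr: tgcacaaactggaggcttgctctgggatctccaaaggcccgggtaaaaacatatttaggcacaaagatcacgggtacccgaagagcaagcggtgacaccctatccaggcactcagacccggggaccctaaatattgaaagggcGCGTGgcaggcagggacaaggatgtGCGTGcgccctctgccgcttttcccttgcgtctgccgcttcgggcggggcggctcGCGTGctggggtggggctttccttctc
Nqo1: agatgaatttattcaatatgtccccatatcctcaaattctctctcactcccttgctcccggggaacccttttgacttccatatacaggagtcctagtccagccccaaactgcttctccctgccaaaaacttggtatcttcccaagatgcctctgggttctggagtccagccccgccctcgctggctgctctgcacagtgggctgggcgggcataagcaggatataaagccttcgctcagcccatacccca
The core was found 1 time before Cyp1b1, 1 time before Cyp1a1, 3 times before Ahrr and not within the window of Nqo1. It starts 76 bases before the Cyp1b1 start site and 54 bases before that of Cyp1a1. With both strands searched, 28.2% of the 32851 promoter windows of the same length in the RefSeq table hold it, so a match is common and describes the letters only.

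**Figure D3:**
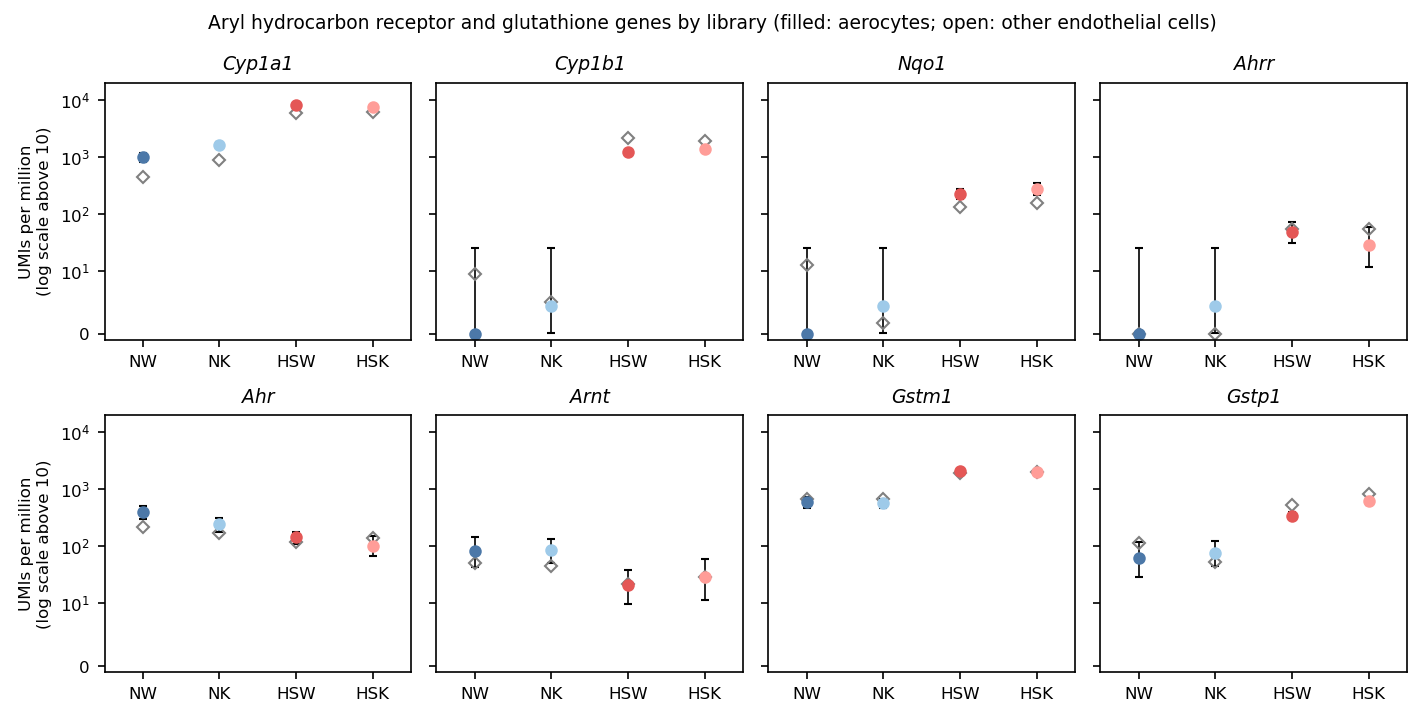
Levels in CPM (vertical axis logarithmic above 10) of AHR genes and glutathione transferases in aerocytes of each library with 95% Poisson intervals; open diamonds are other endothelial cells of the same library. Cyp1a1, Cyp1b1, Nqo1 and Ahrr stand higher in HSW and HSK than in NW and NK, and Ahr and Arnt lower.

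Antioxidant genes under the transcription factor NRF2 were higher in part. Gstm1, a glutathione transferase, measured 585, 569, 2115 and 2007 CPM, 3.61 (2.89 to 4.56) times higher in HSW. Gstp1 measured 62, 75.6, 345 and 628, a ratio of 5.56 (2.86 to 12.4). Srxn1 (sulfiredoxin), Txnrd1 (thioredoxin reductase) and Gclm (a glutathione synthesis subunit) were also at least 2-fold higher, and G6pdx lower. The list's other 15 measured members of 21 were within 2-fold or had intervals that included 1, and the median log2 ratio of the 21 was 0.27. Over all genes 4.45% were higher and 5.25% lower. Gstm1, Gstp1 and the H2 genes below have near-identical copies, so how their reads were shared among copies is uncertain.

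Genes that mark aerocytes lay mostly below 1 in HSW against NW, and none passed 2-fold. Of 13 measured members outside the rule, 11 had ratios below 1 and 2 above. The median log2 ratio was -0.55, against -0.06 over all genes and 0.36 for the same 13 in other endothelial cells. Other endothelial cells include those just under the line, at 6 to 7 UMIs, 0 in NW and 15 in HSW. Over the 4 libraries such cells held 1447 Kdr CPM, against 625 in those with no UMI of the 4 genes. The part of this sorting in the 2 medians was not tested. Tbx3, a transcription factor, measured 565, 653, 307 and 399.9 CPM, a ratio of 0.544 (0.413 to 0.722). Nrp1, a VEGF co-receptor, measured 1026, 1045, 652 and 575, a ratio of 0.636 (0.521 to 0.777), and Emp2 had a ratio of 0.78 (0.684 to 0.891). Kdr had a ratio of 0.894 (0.793 to 1.01), an interval that reaches 1. Icam2 (1.13 (0.98 to 1.31)) and Itga3 (1.03 (0.708 to 1.53)) lay above 1 with intervals that included it. The depth of the cells moves with this comparison, since a deeper cell passes the 8-UMI minimum with a smaller share. With the chosen cells of at least 4000 UMIs thinned to 4000, the median was -0.44. The rule was not applied again after thinning, so this alternative leaves the choice of cells by depth as it was. With the 4 genes at 0.1% or more of a cell's UMIs the median was -0.42, and with 12 UMIs -0.29.

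**Figure D4:**
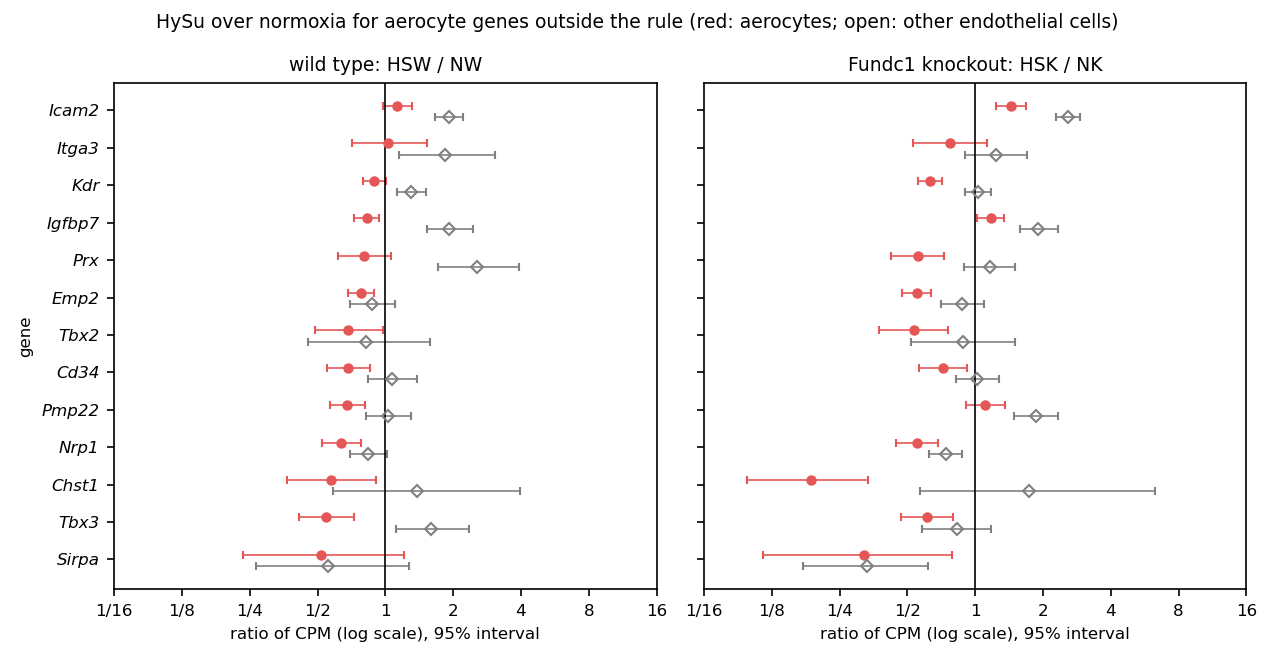
Ratio of CPM, HySu over normoxia, on a log axis with 95% intervals, for the 13 measured aerocyte genes outside the rule; red points are aerocytes and open diamonds other endothelial cells, with wild-type libraries on the left and knockout libraries on the right. In wild type 11 red points lie left of 1, and in the knockout 10.

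Genes that VEGF induces were lower in part, 4 of 10 measured without Apln of the rule, against 5.25% of all genes. Pdgfb, the growth factor with which endothelial cells recruit pericytes, measured 454, 405, 165 and 139 CPM, a ratio of 0.363 (0.259 to 0.511); the normoxia libraries stood above both HySu libraries. Nr4a1 (0.392 (0.179 to 0.877)), the phosphatase Dusp6 (0.443 (0.26 to 0.769)) and the transcription factor Hlx (0.477 (0.288 to 0.803)) were also at least 2-fold lower. Of the 10, 8 had ratios below 1 and none was 2-fold higher; the median log2 ratio was -0.78. With Apln counted it was -0.59, or -0.14 when the chosen cells of at least 4000 UMIs were thinned to 4000. Of the VEGF receptors Flt1 had a ratio of 0.714 (0.597 to 0.857), and the ligand Vegfa 1.19 (0.791 to 1.84).

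Vascular tone genes were apart in both directions. Edn1, the constrictor endothelin-1, measured 131, 147, 369 and 469 CPM, 2.82 (1.76 to 4.8) times higher in HSW, with both HySu libraries above both normoxia libraries. Ace, the angiotensin-converting enzyme, measured 1749, 1520.2, 873 and 767, a ratio of 0.499 (0.426 to 0.585). Calcrl, the receptor of adrenomedullin and 1 of the 10 endothelial genes of the rule, measured 3684, 3245, 1618 and 1636. Because Calcrl helped to choose the cells, its levels are a description only. Gucy1a1, a guanylate cyclase subunit, had 30, 7, 3 and 0 UMIs, and 56.7% of those in NW came from 1 cell. Pde5a, which degrades cyclic GMP, had a ratio of 0.3 (0.128 to 0.702). Of 18 listed genes that the rule had not used 11 were measured, 7 with ratios below 1, and the median log2 ratio was -0.49. Of the 11, 1 was higher and 3 were lower, against 4.45% and 5.25% of all genes.

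Mitochondrially encoded genes of the respiratory chain were higher in HSW. All 6 measured of 13 had ratios above 1 and 3 were past 2-fold, where 4.45% of all genes were higher. The median log2 ratio was 1.00, and 0.93 over the 7 measured in other endothelial cells. mt-Cytb measured 2327, 1231, 5193 and 4859.5 CPM, a ratio of 2.23 (1.99 to 2.51), and mt-Co1 1184, 871, 2486 and 2811, a ratio of 2.1 (1.79 to 2.48). The mitochondrial share of a cell's UMIs, also a sign of cell quality, moved with them: its median was 1.83%, 1.43%, 2.6% and 2.70% in aerocytes and 1.62%, 1.41%, 2.68% and 2.57% in other endothelial cells. Leukocyte-marked cells held 1911, 1198, 3777 and 2977 mt-Cytb CPM. The part of cell quality in this result was not tested. The 53 nuclear-encoded respiratory chain genes had a median log2 ratio of 0.15, with Sdhd alone past 2-fold.

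Mitophagy and autophagy genes lay mostly above 1, and none was past 2-fold with an interval that left out 1. Of 25 listed, 18 were measured, 16 had ratios above 1, and the median log2 ratio was 0.51. Pink1, the kinase that marks damaged mitochondria, measured 34.4, 120.0, 82.5 and 81.6 CPM, a ratio of 2.4 (0.946 to 7.78). The receptor Bnip3l had a ratio of 1.55 (0.806 to 3.28), and Fundc2, the paralog of Fundc1, 1.28 (0.768 to 2.23). All 3 intervals included 1.

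Of the p53 targets and death effectors 4 of 18 measured were higher: Cdkn1a, a cell cycle inhibitor, Bax, which opens the mitochondrial outer membrane, Ccng1 and Trp53inp1. Cdkn1a measured 558, 822, 1176 and 1408 CPM, a ratio of 2.11 (1.67 to 2.7), and Bax 158, 164, 421 and 371, a ratio of 2.66 (1.72 to 4.29). Bak1, which acts with Bax, had 23, 10, 13 and 13 UMIs and a ratio of 0.169 (0.0788 to 0.349); 1 cell held 39.1% of its UMIs in NW. The median log2 ratio of the 18 was 0.57, and 4.45% of all genes were higher in the same comparison.

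MHC class II genes were higher in HSW, 3 of 6 past 2-fold, against 4.45% of all genes. Cd74, the invariant chain, measured 399, 716, 1855 and 1595 CPM, a ratio of 4.64 (3.56 to 6.17); H2-Eb1 (3.07 (1.94 to 5.13)) and H2-Ab1 (2.31 (1.64 to 3.33)) were also past 2-fold. All 6 measured of 9 had ratios above 1, with a median log2 ratio of 1.01, and 1.12 over 9 in other endothelial cells. Leukocyte-marked cells held 4033, 3529.8, 6331 and 5485 Cd74 CPM; the 12 macrophage and monocyte genes summed to 1838, 1889, 1197 and 1897 CPM in aerocytes, lowest in HSW. The 8 lymphocyte genes moved with class II: they summed to 82.6, 200, 233 and 420.3 CPM, and all 3 measured were above 1 in HSW, with the B cell receptor genes Cd79a and Cd79b past 2-fold and a median log2 ratio of 2.51. B cells also carry Cd74 and class II. The part of these cells or their free RNA in this result was not tested. Class I genes had a median log2 ratio of 0.45, with the peptide transporter Tap1 lower (0.378 (0.211 to 0.684)).

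Further genes apart in wild type were Snrnp48 of the minor spliceosome (0, 11, 38 and 9 UMIs), the laminin chain Lama1 (0, 2, 30 and 26), Fkbp7, a prolyl isomerase of the endoplasmic reticulum (2, 10, 59 and 15), and Gsdmd, the pore protein of pyroptosis (1, 16, 35 and 15), all higher in HSW than in NW. Acta2, smooth muscle actin, had 2, 3, 110 and 2 UMIs, and 98.2% of those in HSW came from 1 cell. Lower in HSW were Cyp26b1, which breaks down retinoic acid (36, 23, 14 and 8), Tmeff2 (25, 25, 16 and 9), Malsu1 (20, 11, 13 and 17), the lysosomal channel Mcoln1 (18, 13, 13 and 5) and Adgra3, an adhesion receptor (28, 24, 23 and 20). The NW UMIs of Cyp26b1 lay in 6 cells, with 36.1% in 1 of them. For Tmeff2, Malsu1, Mcoln1 and Adgra3 the highest cell held 20% to 25% of the NW UMIs. The type 1 cell gene Ager had 24, 98, 12 and 4 UMIs, with 83.3% of those in NW from 1 cell. Emcn, a glycoprotein of capillaries and 1 of the genes of the rule, measured 399, 511, 931 and 767 CPM, given as a description only.

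The comparison of HSK with NK asks the same of aerocytes without FUNDC1. It uses neither wild-type library. Cyp1b1 was 311 (55.5 to 12326) times and Nqo1 61.5 (10.7 to 2465) times higher in HSK, each against 1 UMI in NK. Cyp1a1 was 4.65 (4.15 to 5.21) times, Gstp1 8.32 (5.03 to 14.6) times and Gstm1 3.53 (2.9 to 4.32) times higher. Of 8 measured AHR genes 4 were higher, Tiparp among them (3.1 (1.37 to 7.89)), and Ahr (0.425 (0.253 to 0.695)) and Arnt (0.338 (0.12 to 0.84)) were lower. By the same rule 6.49% of 4450 genes were higher and 10.8% lower, and the median log2 ratio over all genes was -0.19, or -0.03 with TMM scaling of the library totals.

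Aerocyte genes lay mostly below 1 in HSK against NK. Of 13 measured outside the rule, 10 had ratios below 1 and 2, Chst1 and Sirpa, were past 2-fold, a count near the 10.8% of all genes, with a median log2 ratio of -0.71 against -0.19 over all genes and 0.03 in other endothelial cells. With TMM scaling the median was -0.54. With the chosen cells of at least 4000 UMIs thinned to 4000 it was -0.39, on 24 of 51 NK and all 31 HSK aerocytes. The median share of the rule's 4 genes was 0.364% in NK and 0.176% in HSK, at medians of 3961 and 7123 UMIs per cell. Other endothelial cells include those just under the line, at 6 to 7 UMIs, 3 in NK and 8 in HSK. The parts of depth and of this sorting in these medians were not tested. Chst1 measured 220.3, 307, 126 and 57.1 CPM, a ratio of 0.186 (0.0968 to 0.334). Kdr had a ratio of 0.628 (0.556 to 0.71), Emp2 0.55 (0.475 to 0.637) and Nrp1 0.551 (0.444 to 0.681). Sirpa had 11, 20, 19 and 7 UMIs in all, a low count. Kitl, which is not in that list, measured 1136, 1338, 759 and 563 CPM and had a ratio of 0.421 (0.342 to 0.516) in HSK against NK.

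Bmpr2, Tgfbr3 and Sox17, of the list of BMP and TGF-beta signalling and heritable pulmonary hypertension, were lower in HSK than in NK. Bmpr2, the type 2 BMP receptor, measured 1246, 1902, 972 and 775 CPM, a ratio of 0.407 (0.342 to 0.485). Tgfbr3, a co-receptor, measured 179, 222, 107 and 53, a ratio of 0.239 (0.119 to 0.446), and Sox17, an endothelial transcription factor, 82.6, 142, 146 and 65.3, a ratio of 0.459 (0.235 to 0.861). HSK was the lowest of the 4 libraries for all 3 genes. Of 19 measured these 3 were lower, near the 10.8% of all genes, 13 had ratios below 1, and the median log2 ratio was -0.65. The receptors Acvrl1 (0.923 (0.801 to 1.06)) and Eng (0.949 (0.791 to 1.14)) were near 1. In wild type the same list had a median of -0.01 and no member past 2-fold.

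Vegfa measured 207, 364, 246 and 139 CPM, with a ratio of 0.381 (0.247 to 0.574) in HSK against NK. Pdgfb (0.343 (0.224 to 0.514)) and Nr4a1 (0.351 (0.17 to 0.682)) were lower in the knockout pair as in the wild-type pair. Of 15 listed Notch genes 8 were measured, with a median log2 ratio of -0.81. Of these, Mfng, Lfng and Jag2 were at least 2-fold lower, against 10.8% of all genes. Edn1 was 3.2 (2.16 to 4.86) times higher. All 6 measured mitochondrially encoded genes were past 2-fold, with a median log2 ratio of 1.56; mt-Cytb had a ratio of 3.95 (3.46 to 4.51) and mt-Nd1 2.72 (2.37 to 3.13). Nuclear-encoded respiratory chain genes had a median of 0.34, with 8 of 53 higher and Sdha lower, against 6.49% and 10.8% of all genes.

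Also higher in HSK than in NK were the phosphatase Alpl (10, 2, 31 and 28 UMIs), Wfdc1 (9, 15, 175 and 95), Tmem98 (5, 5, 53 and 31) and Dpm2, a subunit of dolichol-phosphate mannose synthase (8, 5, 33 and 29). Olfml2a (13, 31, 14 and 2) was lower, and Limch1 (9, 42, 41 and 7) too, though not without cells above 0.5% of UMIs for a list of some other lineages. Camp (1, 236, 4 and 3), Ngp (0, 147, 3 and 3) and Ltf (1, 82, 0 and 3) are neutrophil granule genes, and 1 cell of NK held 97.0%, 98.6% and 98.8% of their UMIs there. Ager and Cldn18 of type 1 cells and Inmt of fibroblasts had 24, 98, 12 and 4, 12, 34, 19 and 1 and 9, 54, 70 and 3 UMIs, with 92.9%, 79.4% and 53.7% of those in NK from 1 cell.

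The difference between the 2 HySu effects, log2 (HSK/NK) minus log2 (HSW/NW), was computed for 4231 genes. It was at least 1 with an interval that left out 0 for 4.4% of them and at most -1 for 6.38%, counting error only. Vegfa had a difference of -1.61 (-2.42 to -0.80), Sox17 -1.88 (-3.10 to -0.66), Chst1 -1.57 (-2.59 to -0.55) and Irf1, an interferon-induced transcription factor, -1.62 (-2.69 to -0.54). Bmpr2 had a difference of -0.93 (-1.28 to -0.58), Kdr -0.51 (-0.75 to -0.26) and Emp2 -0.50 (-0.78 to -0.22), short of 1. Cyp1a1 had -0.85 (-1.13 to -0.56) and mt-Cytb 0.82 (0.57 to 1.07). For Bax (-0.22 (-1.04 to 0.61)), Edn1 (0.20 (-0.67 to 1.07)), Gstm1 (-0.03 (-0.45 to 0.39)) and Pdgfb (-0.07 (-0.80 to 0.67)) the interval included 0. With 1 library in each group the difference has no replicate check.

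The comparison of NK with NW asks what loss of FUNDC1 does to aerocytes at normoxia. Klf9 and Tsc22d3, which glucocorticoids induce, and the clock gene Per1 were higher in NK. Klf9 measured 158, 338, 357 and 302 CPM, a ratio of 2.13 (1.32 to 3.56), and Tsc22d3 103, 213, 122 and 159, a ratio of 2.07 (1.14 to 3.97). Per1 had 0, 21, 10 and 12 UMIs, at least 4.52-fold higher. Of 7 measured 3 were higher, while by the same rule 5.97% of 3834 genes were higher and 3.03% lower; the list's median log2 ratio was 0.56 against 0.05 over all genes and 0.74 in other endothelial cells.

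Mitophagy genes were higher in part in NK. Pink1 had 5, 27, 40 and 20 UMIs, a ratio of 3.49 (1.32 to 11.6). Atg5, needed to form autophagosomes, had 3, 18, 21 and 13 UMIs (3.87 (1.13 to 20.5)), and Fkbp8, a mitophagy receptor, 7, 29, 50 and 19 (2.67 (1.15 to 7.23)). All 3 are called higher on 3 to 7 UMIs in NW, where 5.97% of all genes were higher. Of 16 measured 10 had ratios above 1, with a median log2 ratio of 0.39, and -0.07 in other endothelial cells. Bnip3 had 11, 6, 20 and 16 UMIs and Fundc2 19, 24, 81 and 39. The 6 measured mitochondrially encoded genes were all below 1 and none past 2-fold, with a median of -0.50 and -0.49 over the 7 in other endothelial cells.

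Aerocyte genes outside the rule differed little between NK and NW, with 9 of 13 above 1, none past 2-fold and a median log2 ratio of 0.15. Kit, a receptor that marks general capillary cells, measured 220.3, 453, 406 and 441 CPM, a ratio of 2.06 (1.37 to 3.16). Hes1, a Notch target, had a ratio of 2.05 (1.26 to 3.48), and Bmp6 2.2 (1.26 to 4.03). Bmpr2 was 1.53 (1.28 to 1.83) and Vegfa 1.76 (1.15 to 2.78), within 2-fold. Csrnp1 (5, 37, 26 and 20 UMIs) and Ccl5 (3, 32, 13 and 166) were higher and Bak1, Ifi203 (35, 17, 76 and 33), Ndufb6 (23, 12, 101 and 55), Malsu1 (20, 11, 13 and 17) and Adprh (23, 13, 105 and 52) lower.

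Several of the largest ratios of NK over NW were of neutrophil genes, most of whose UMIs came from 1 cell. Camp (1, 236, 4 and 3 UMIs), S100a8 (55, 534, 156 and 122), S100a9 (54, 377, 136 and 90) and Lcn2 (11, 90, 15 and 18) had 97.0%, 74.7%, 75.9% and 93.3% of their NK UMIs in 1 cell. An alternative left out cells in which any 1 list of some other cell types exceeded 0.5% of UMIs. The lists were alveolar type 1, fibroblast, pericyte and smooth muscle, ciliated and secretory without Scgb1a1, platelet, red cell, lymphocyte and neutrophil. Alveolar type 2 and macrophage lists were not used. The log2 ratio of S100a8 then went to -0.06, of S100a9 to -0.73 and of Lcn2 to -1.67. Of the other large ratios Ccl5, a chemokine of T cells, had 18.8% of its NK UMIs in 1 cell, while Hmgb2 (3, 42, 21 and 11) and Aldh1a1 (3, 28, 25 and 7) had 59.5% and 60.7% of their NK UMIs in 1 cell. Gucy1a1, Vwf (52, 26, 64 and 49) and Samd5 (20, 10, 21 and 12) were lower in NK, with 56.7%, 67.3% and 45.0% of the NW UMIs in 1 cell.

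The comparison of HSK with HSW asks what loss of FUNDC1 does in the HySu model. It shares HSK with the comparison of HSK with NK, and HSW with that of HSW with NW. By the same rule 2.29% of 5683 genes were higher and 3.73% lower. Chst1 had a ratio of 0.454 (0.234 to 0.821), Sox17 0.446 (0.242 to 0.774), Tgfbr3 0.494 (0.247 to 0.921) and Vegfc, the lymphatic growth factor, 0.456 (0.194 to 0.958), all lower. Kdr (0.807 (0.721 to 0.902)) and Emp2 (0.714 (0.624 to 0.817)) were within 2-fold. Of 14 measured aerocyte genes outside the rule 10 had ratios below 1 and 1 was past 2-fold, with a median log2 ratio of -0.18 against -0.04 over all genes.

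Some interferon genes were lower in HSK, and MHC class I genes lay mostly below 1. Irf7 had 5, 6, 27 and 2 UMIs (0.146 (0.0169 to 0.583)) and Irf1 16, 38, 86 and 21 (0.483 (0.285 to 0.785)). Isg20 and Irgm1 were lower too, 4 of 24 measured against 3.73% of all genes, with a median log2 ratio of -0.15. Of 18 class I genes 15 had ratios below 1, only Tap1 was past 2-fold (0.341 (0.103 to 0.891)), and the median was -0.37, with -0.25 in other endothelial cells. H2-K1 measured 2024, 2134, 2624 and 2012 CPM and B2m 5983, 4894, 8573 and 6643.

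Lpl, the lipoprotein lipase, measured 96.4, 124, 225 and 494 CPM, a ratio of 2.2 (1.68 to 2.87). Ddit4, a stress-induced inhibitor of mTOR (4, 6, 17 and 23 UMIs), and Mcl1, an anti-apoptotic protein (26, 73, 47 and 49), were higher in HSK than in HSW. Cyp1a1 (0.928 (0.878 to 0.98)), Cyp1b1 (1.14 (0.998 to 1.31)) and Nqo1 (1.23 (0.891 to 1.68)) were near 1. No AHR gene and no mitochondrially encoded gene was past 2-fold. Tomm40, a mitochondrial import pore (11, 6, 13 and 22), Dnajc15, a co-chaperone of mitochondrial import (12, 9, 14 and 26), Tmem252 (7, 9, 18 and 33), Ogfrl1 (4, 17, 11 and 19) and Josd2 (2, 11, 12 and 20) were higher, with 36.4%, 46.2%, 24.2%, 36.8% and 20% of their HSK UMIs in 1 cell. Dcaf15 (1, 0, 12 and 27) and Ccl5 (3, 32, 13 and 166), with Nkg7 of cytotoxic lymphocytes (0, 18, 12 and 21), had 81.5%, 71.1% and 52.4% of their HSK UMIs in 1 cell.

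Genes known from fibroblasts and mural cells led the lowest ratios of HSK over HSW. Acta2, Dcn (4, 1, 99 and 4 UMIs), Mfap4 (3, 11, 65 and 2), Ogn (5, 26, 38 and 1), Inmt, Rarres2 (13, 8, 49 and 2) and Gpx3 (47, 66, 163 and 15) had 47.7% to 99.0% of their HSW UMIs in 1 cell. Mgp, an inhibitor of calcification, had 68, 129, 893 and 46 UMIs in 10, 25, 41 and 21 cells, with 34.8% of those in HSW from 1 cell. With the same cells left out as for S100a8 above, the log2 ratios of Acta2 and Dcn went to 0.28 and 2.6, both on few UMIs. That of Rarres2 went to -0.12. Mfap4 (-2.96), Ogn (-2.44), Inmt (-1.73), Mgp (-1.74) and Gpx3 (-1.47) stayed past 2-fold with intervals below 1, and also without the highest cell of each gene, where Mgp had -3.11 and Gpx3 -1.78.

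**Figure D5:**
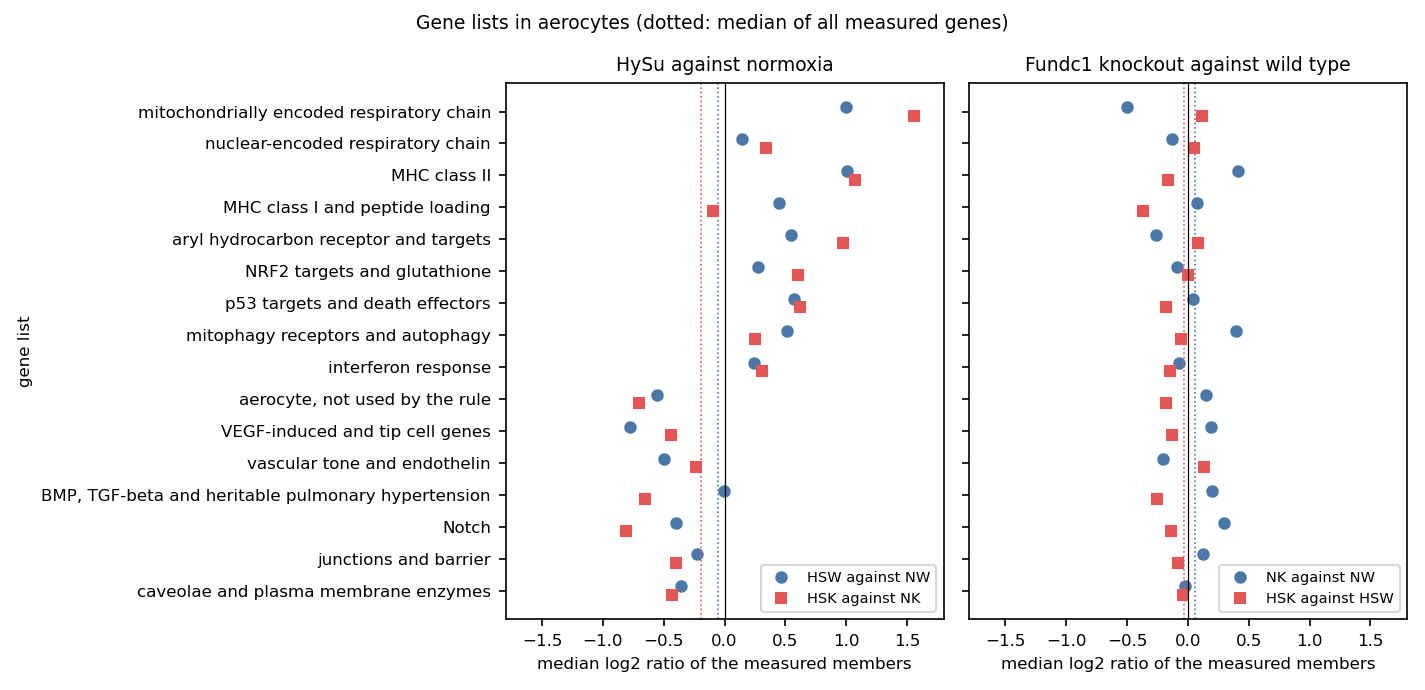
Median log2 ratio over the measured members of 16 gene lists in aerocytes, without genes that the rule used, for HySu over normoxia (left) and FUNDC1 knockout over wild type (right), with dotted lines at the median of all measured genes. Mitochondrially encoded genes lie at 1.00 and 1.56 and aerocyte genes outside the rule at -0.55 and -0.71 in the left panel, and all 16 lists lie between -0.50 and 0.41 in the right panel.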

How the data were processed

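Single-cell suspensions of mouse lung gave 4 libraries, 1 per group. The authors deposited 1 matrix of UMI counts per library, whole-number counts per gene and cell, and the submitters' processing notes name GRCm38 with STAR 2.6.1a, featureCounts 2.0.1, cutadapt 1.17 and Scanpy. The roles of these tools, filters on cells and doublet removal are not given in the sources used here, and no doublet caller was run. No cluster was made: aerocytes were chosen by the rule in the text, and the members, gene lists and rules were chosen with earlier results of these data known. Counts were summed over aerocytes per library and divided by the aerocyte total (CPM). Ratios have exact conditional binomial 95% intervals, levels Poisson intervals. A gene was measured with at least 20 UMIs in the pair, and called past 2-fold with an interval that excludes 1. Log2 ratios add 0.5 UMI. A library at 0 was set to 3 counts for a lower bound.

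Per comparison the 8 largest and 8 smallest ratios were named among genes with at least 30 UMIs, 50 CPM, 5 aerocytes, and 0.5 times the level of non-endothelial cells; genes of mitochondrial DNA, ribosomal proteins, haemoglobin, immunoglobulins and T cell receptors and unnamed models were not eligible. From lists, the members with most UMIs among those past 2-fold were named; some further list members were chosen after their values were seen. Of 695 listed genes 688 were in the files. Calls were tested before use on simulated Poisson counts without variation between cells or mice, so the effect of that variation was not tested. Promoters came from the RefSeq table on GRCm38.p6. Python 3.11.15, numpy 2.4.6, scipy 1.17.1, pandas 2.3.3 and edgeR 4.0.16 (TMM only) were used. Of the alternatives 12 were planned and 2 added after seeing the data. Low counts limit precision.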

Additional observations from a re-analysis of the deposited data

Results flagged for a closer look

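The genes of the 44 lists and those named by the size of their ratios were searched for opposite HySu effects. In 8, the effects in wild type (HSW against NW) and knockout (HSK against NK) pointed in opposite directions. Each effect was past 2-fold with an interval that left out 1. The share over all measured genes was not computed, so nothing is read from this count. With 1 library in each group, the opposite effects were not tested. Values are log2 (HSK/NK) minus log2 (HSW/NW). Tomm40 had 3.18 and Dnajc15 2.88, with 36.4% and 46.2% of their HSK UMIs in 1 cell. Inmt had -5.24 and Mgp -3.57, and 51.4% and 34.8% of their HSW UMIs came from 1 cell. The haemoglobin genes Hbb-bs, Hba-a2, Hbb-bt and Hba-a1 had 12.7, 11.96, 11.0 and 7.13. In NW 1 cell held nearly all of the red cell RNA, and in NK 4 of 5 red cell genes were at 0. In HSK 2 cells exceeded 0.5% of UMIs for these genes, and 1 cell held 52.5% of the red cell RNA.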

How the results depend on the processing

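No paired analysis was possible because each group is 1 library and the labels carry no replicate numbers. Leaving out a replicate was not possible for the same reason. Of 168 alternative values of counts and shares, 138 stayed near the main value and 30 moved; of 864 for named genes 789 kept direction and call, 53 lost the call and 22 reversed; of 1760 for list medians 4 reversed.

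With 12 UMIs required, aerocytes were 20.6% (NK), 14.6% (HSW) and 13.5% (HSK) of endothelial cells and 0.404%, 0.992% and 0.509% of all cells, and 150 genes were higher in NK than in NW. Among cells with at least 4000 UMIs, aerocytes chosen on all their UMIs were 0.349% in NK. With these deeper aerocytes thinned to 4000 UMIs, genes past 2-fold were 171 lower in HSW against NW and 88 higher and 74 lower in NK against NW. They were 76 and 120 in HSK against HSW, 175 and 200 in HSK against NK, and 97 and 111 for the difference of the HySu effects. With 50 UMIs in the pair they were 134 higher and 82 lower (HSW against NW), 55 and 27 (NK against NW), 20 and 76 (HSK against HSW) and 146 and 157 (HSK against NK). With 5 UMIs they were 500 lower (HSW against NW), 387 higher and 272 lower (NK against NW), 224 higher (HSK against HSW) and 779 lower (HSK against NK). Fewer or more genes and cells tested are part of these alternatives.

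Reversed log2 ratios were of genes of other lineages. With endothelial genes at 0.6% or more, Acta2 was -1.67 in HSW against NW and 0.94 in HSK against HSW, Lcn2 -1.42 in NK against NW, Dcn 2.53 in HSK against HSW, Ngp 0.36 and Ltf 1.09 in HSK against NK, and the lymphocyte list's median -1.19 in HSK against HSW. Another alternative held the alveolar type 1, fibroblast, pericyte and smooth muscle, ciliated and secretory, and platelet lists together at 0.5% or less. Acta2 was then -0.754 and 0.40, Dcn 2.72 and Rarres2 1.14. A further alternative (added) held each of these lists, without Scgb1a1, and the red cell, lymphocyte and neutrophil lists at 0.5% or less. There Acta2 was -1.07 and 0.28, S100a8 -0.058, Lcn2 -1.67, S100a9 -0.73, Dcn 2.6 and Ltf 1.05. The lymphocyte list was at -1.11 and the extracellular matrix list in HSK against NK at 0.092. Neither alternative capped the alveolar type 2 or macrophage lists. Without the highest cell of each gene (added), Acta2 was -1.26 and 0.36, Lcn2 -1.19, Dcn 2.32, Ltf 0.64 and the lymphocyte list -0.998.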

Other observations

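Further gene groups in aerocytes, not described above, follow as values. Cxcl12, a chemokine of capillaries, measured 220.3, 387, 485 and 453 CPM and was 2.2 (1.52 to 3.29) times higher in HSW than in NW; its scavenger receptor Ackr3 measured 124, 151, 413 and 502, a ratio of 3.33 (2.05 to 5.73), and 3.32 (2.26 to 5.01) in HSK against NK. Aqp1, the water channel, measured 1983, 2285, 1211 and 1367, and the caveolar coat gene Cav1 2176, 2045, 1700.1 and 1518, within 2-fold in both HySu comparisons. Lyve1 measured 1129, 862, 1234 and 1759, a ratio of 2.04 (1.72 to 2.43) in HSK against NK. The flow-induced factors Klf2 and Klf4 measured 895, 1085, 895 and 1265 and 778, 1334, 501 and 739, and Klf4 had a ratio of 0.554 (0.458 to 0.668) in HSK against NK. Gapdh of glycolysis measured 207, 218, 464 and 506, a ratio of 2.25 (1.53 to 3.41) in wild type and 2.32 (1.66 to 3.3) in the knockout.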
